A study of Mus musculus with 6 samples.

Results

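The transcripts described here encode the protein subunits of the mitochondrial ribosome (mitoribosome). Members were all loci of the deposited count table with a gene symbol made of Mrpl or Mrps, a number and an optional letter, which gave 78 of 51499 loci, 49 with Mrpl names and 29 with Mrps names. Total RNA from mouse embryonic fibroblasts (MEFs) immortalized with SV40 large T antigen was sequenced as poly(A)-selected, stranded paired-end libraries from 3 cultures each of 2 genotypes. The control group, WT, carries floxed alleles (Yme1l fl/fl), and the other group is Yme1l-/-. Both came from cells of Yme1l floxed animals after Cre transduction, as individually expanded and genotyped clones, so genotype cannot be told apart from other differences between clones. YME1L, a protease driven by ATP, sits in the inner mitochondrial membrane, and the comparison asks how the transcripts of these cells differ when it is absent. How many clones the 3 cultures of a genotype stand for is not given in the labels, so that p-values measure the spread between these cultures only.

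The mitoribosome translates the few proteins encoded by mitochondrial DNA, all of them membrane subunits of respiratory chain complexes or of ATP synthase. Its ribosomal RNAs are transcribed inside the organelle, whereas all its proteins are encoded in the nucleus, made in the cytosol and imported. The large subunit joins amino acids and holds the exit tunnel, and the small subunit decodes the messenger RNA. Part of the proteins have a bacterial counterpart, and the rest are particular to mitochondria and coat the outside of the particle. The symbols do not follow structure in every case, since the products of Mrps30 and Mrps18a are parts of the large subunit and Mrps36 encodes a subunit of the 2-oxoglutarate dehydrogenase complex.

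Libraries held 33180867 to 49351107 fragments over all loci. Levels are given as counts per 1e6 fragments (CPM) after TMM scaling of library sizes, and a locus was called when its edgeR quasi-likelihood adjusted p, over all 13867 loci tested, was under 0.05. Yme1l1, the targeted gene, was at 191, 192 and 183 CPM in WT and at 37.9, 38.9 and 40.6 CPM in Yme1l-/-. The fibroblast markers Col1a1, Col1a2, Vim and Fn1 were above 1000 CPM in all libraries, while Thy1 reached at most 0.18 CPM in WT and was at 0 in Yme1l-/-. The 10 fibroblast markers summed to 11187 to 11768 CPM in WT and to 7051 to 7531 CPM in Yme1l-/-, and the 6 epithelial markers to 33.1 to 35.1 CPM, mainly Krt18, and 0.37 to 0.69 CPM. Against the fibroblast sum, Col1a1 (log2 fold change 0.43) and Ddr2 (0.38) were called higher in Yme1l-/-. The 6 blood cell markers summed to 1.80 to 1.99 CPM in WT and 3.74 to 4.49 CPM in Yme1l-/-, mainly Cd68, which was called higher (1.04), and the 5 endothelial markers to 0.89 to 1.44 and 1.67 to 2.00 CPM, mainly Kdr, also called higher (0.72). Emcn, Adgre1 and Cd3e were at 0 in all libraries. The part of these shifts in the results below was not tested. In bulk RNA, fewer cells of a type and less RNA per cell cannot be told apart.

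Mitoribosomal protein transcripts were shifted upwards in Yme1l-/- cells, by small amounts and with a few members going the other way. Of the 77 members tested, 55 were called higher in Yme1l-/- and 8 lower, which is 71.4% and 10.4%, beside 33.6% higher and 34.1% lower among all loci tested. Calls in either direction came to 63 members or 81.8%, beside 67.7% of all loci. The median log2 fold change (Yme1l-/- over WT) was 0.26 for the members, a ratio of 1.2, with the middle 50% of members between 0.11 and 0.43, whereas it was -0.0041 over all loci. For 53 members every Yme1l-/- culture exceeded every WT culture, beside 35.9% of all loci, and for 8 members each was below, beside 36.0% of all loci. The other 16 members overlapped between genotypes.

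Changes were narrow in size. Members called higher ranged from a ratio of 1.09 to 2.43, with a median of 1.28, and those called lower from 0.56 to 0.88. Only 7 members were at least 1.5 times higher and 1 at least 1.5 times lower, and Mrpl55 was the only one past a 2-fold change. The depth behind these values was high, with 371 to 7356 fragments per library and standard errors of 0.042 to 0.11 on the log2 scale for the tested members.

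**Figure D1:**
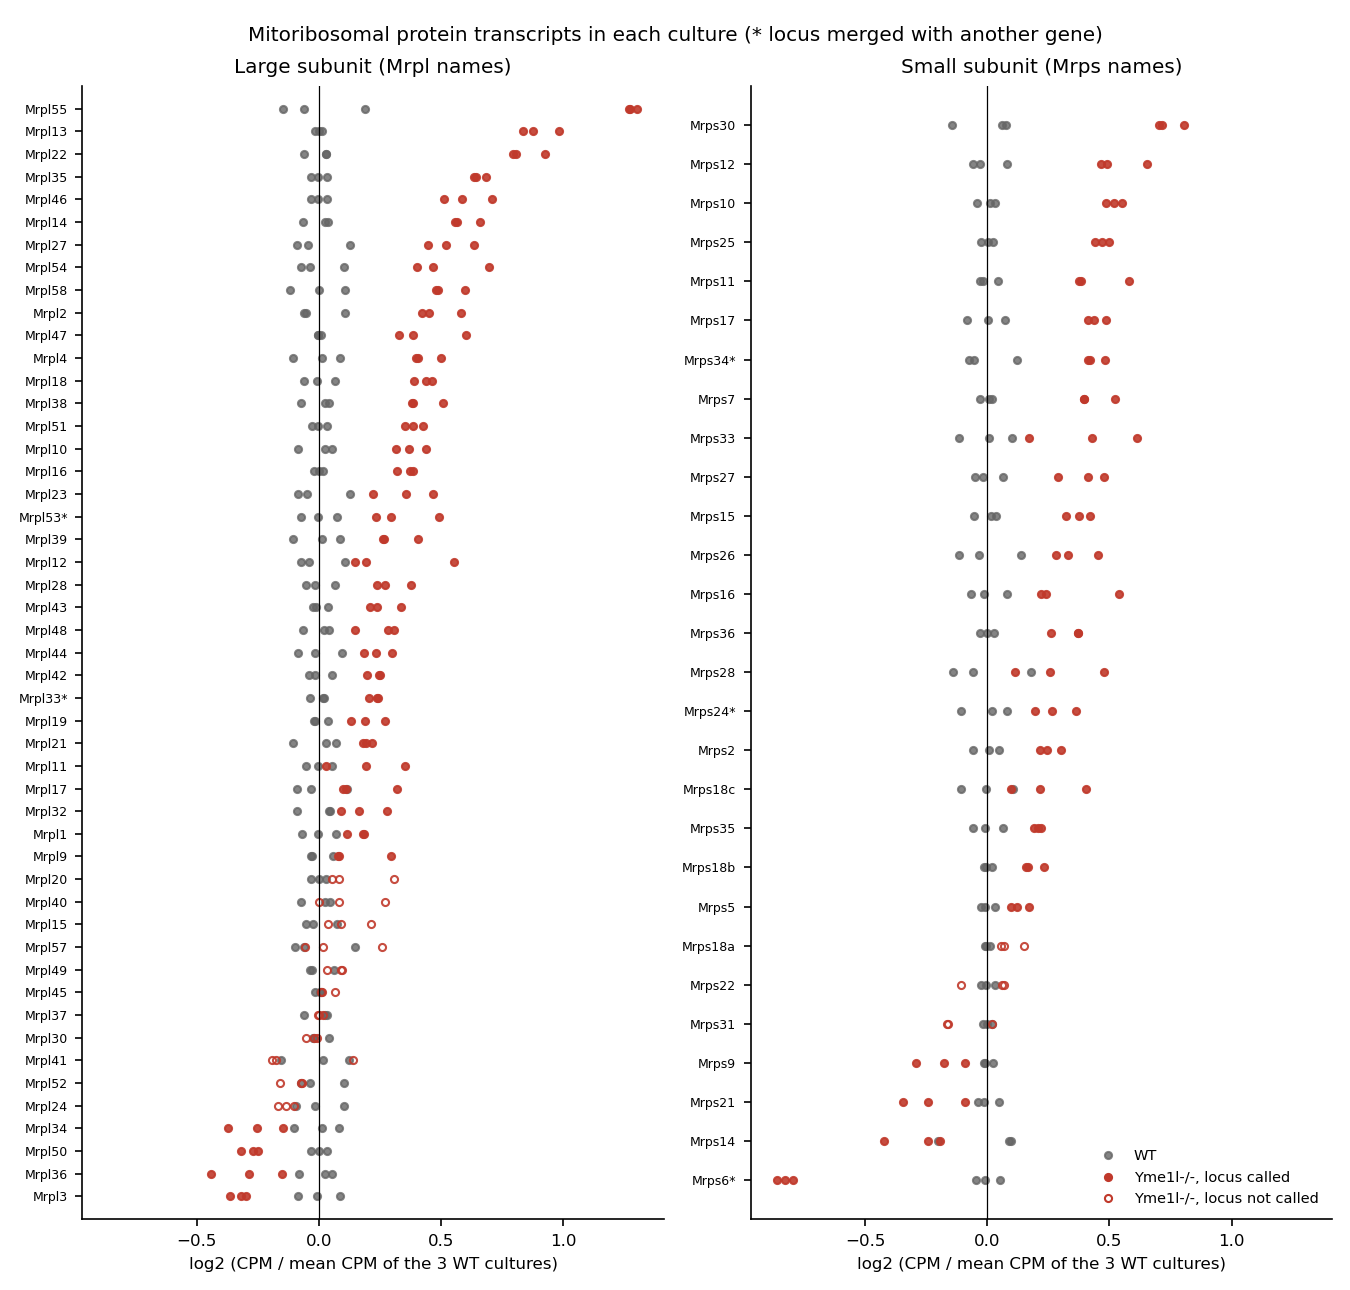
Each row is 1 of the 77 tested members, ranked by fold change, and each point 1 culture, plotted as log2 of its CPM over the mean CPM of the 3 WT cultures (grey, WT, and red, Yme1l-/-, filled where the locus was called). Most rows have all red points to the right of the grey ones, up to Mrpl55 at 1.28, and the Mrps6 locus lies farthest to the left at -0.83.

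Summed over all 78 members, transcripts reached 3759, 3591 and 3558 CPM in WT cultures and 4558, 4206 and 4199 CPM in Yme1l-/- cultures. The lowest Yme1l-/- sum was above the highest WT sum, and the ratio of the means was 1.19. The first Yme1l-/- culture stood above the other two for 71 of 77 members, and taken alone against the WT mean the 3 Yme1l-/- libraries gave median log2 ratios of 0.36, 0.23 and 0.22. The shift was present in each culture and largest in the first. The first WT culture was also the highest of its genotype for 52 members. The first Yme1l-/- library was the shallowest of its genotype, with 34624075 fragments beside 49351107 and 49157459. With all libraries thinned to the smallest total, 52 members were called higher and 9 lower, and the median log2 fold change was 0.25.

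The counts by subunit and structure are to be read beside 33.6% higher and 34.1% lower among all loci tested. By subunit, 34 of 49 members with Mrpl names were called higher and 4 lower (69.4% and 8.16%), with a median log2 fold change of 0.24. Of the 28 tested members with Mrps names, 21 were called higher and 4 lower (75% and 14.3%), with a median of 0.31. The 4 lower calls were 2 without Yme1l-/- replicate 2 and with upper-quartile scaling. Grouped by structure, 23 of 30 large subunit proteins with a bacterial counterpart were higher and 3 lower (median 0.26), as were 12 and 1 of 21 large subunit proteins particular to mitochondria (median 0.24). In the small subunit, 12 of 16 proteins with a bacterial counterpart were higher and 4, or 25%, lower (median 0.28). Of 9 small subunit proteins particular to mitochondria, 7 were higher and 0 lower (median 0.36). Both subunits and both kinds of protein thus had more members called higher than lower, and differences between these groups were not tested. The 4 lower calls of small subunit proteins with a bacterial counterpart were likewise 2 under those settings.

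The largest change was that of Mrpl55, a large subunit protein with a bacterial counterpart (chromosome 11, 59202486 to 59206134 in mm10). It was the least abundant tested member in WT by count, at 14.31, 11.33 and 12.03 CPM, and rose to 30.3, 30.3 and 31.0 CPM in Yme1l-/-. The groups were far apart, and the log2 fold change was 1.28 ± 0.08 (SE, n = 3 per genotype; edgeR adjusted p 1.28e-07). Mrpl13 (chromosome 15, 55534094 to 55626423), a conserved protein of the large subunit, was at 51.5, 51.0 and 52.0 CPM in WT and at 102, 94.6 and 91.8 CPM in Yme1l-/-, a log2 fold change of 0.90 ± 0.05 (adjusted p 3.99e-08). Mrpl22, whose bacterial counterpart lines the exit tunnel, went from 25.03, 23.51 and 25.04 CPM to 46.6, 42.5 and 42.9 CPM (0.84 ± 0.06, adjusted p 2.16e-07). No Yme1l-/- library of these 3 genes came near a WT library.

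Mrps30, which in spite of its symbol belongs to the large subunit and is particular to mitochondria, was at 40.4, 40.0 and 34.7 CPM in WT and at 67.2, 63.1 and 62.5 CPM in Yme1l-/- (0.74 ± 0.06, adjusted p 1.25e-06). Mrpl35 followed at 0.65, Mrpl46 at 0.60 and Mrpl14 at 0.59 on the log2 scale. Mrps12, whose bacterial counterpart sits at the decoding centre, was the highest small subunit member, with 21.7, 23.4 and 21.2 CPM in WT and 34.8, 30.5 and 31.0 CPM in Yme1l-/- (0.54 ± 0.07, adjusted p 3.19e-05). Further members of the small subunit at the top of their groups were Mrps10, with a log2 fold change of 0.52, Mrps25, with 0.47, and Mrps34, with 0.44. All of these had no overlap between genotypes.

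The members called lower were Mrps6, Mrpl3, Mrpl36, Mrps14, Mrpl50, Mrpl34, Mrps21 and Mrps9. The locus of Mrps6, a small subunit protein with a bacterial counterpart, is merged in the count table with Slc5a3, a sodium-coupled myo-inositol transporter (chromosome 16, 92058270 to 92112227). It went from 85.4, 87.7 and 91.5 CPM in WT to 50.8, 48.6 and 49.7 CPM in Yme1l-/- (-0.83 ± 0.05, adjusted p 4.36e-08). The authors' FPKM of the same locus was 55.1 in WT and 51.7 in Yme1l-/-, so that the counts do not show which of both genes was lower. Without it, the lowest member was Mrpl3, whose bacterial counterpart lies near the peptidyl transferase centre, at 90.0, 84.3 and 79.9 CPM in WT and 68.9, 68.0 and 65.8 CPM in Yme1l-/- (-0.33 ± 0.05, adjusted p 0.000191).

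Mrpl50, a large subunit protein particular to mitochondria, was at 56.1, 54.8 and 53.6 CPM in WT and at 46.1, 45.5 and 44.0 CPM in Yme1l-/- (-0.28 ± 0.05, adjusted p 0.000232). Mrpl36, the counterpart of the smallest bacterial large subunit proteins, was at 16.9, 16.5 and 15.4 CPM in WT and at 14.65, 11.99 and 13.34 CPM in Yme1l-/- (-0.29 ± 0.09, adjusted p 0.0111). The groups did not overlap for either gene. Mrps14 was at -0.28, Mrpl34 at -0.26, Mrps21 at -0.22 and Mrps9 at -0.19 on the log2 scale, and Mrps14 was the only called member of this direction with overlapping libraries (29.4 CPM in the lowest WT and 29.6 CPM in the highest Yme1l-/- library). Upper-quartile scaling ended the calls of Mrpl34, Mrps21 and Mrps9, and leaving out a library also ended several calls. Mrps14 was not called without WT replicate 1 (-0.24), WT replicate 2 (-0.24) or Yme1l-/- replicate 2 (-0.22), Mrpl34 without WT replicate 3 (-0.21) or Yme1l-/- replicate 3 (-0.20), Mrps21 without Yme1l-/- replicate 3 (-0.16), and Mrps9 (-0.13) and Mrpl36 (-0.22) without Yme1l-/- replicate 2.

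Some members have further known roles. Mrpl12, a protein of the stalk that receives translation factors, also binds the mitochondrial RNA polymerase. It was at 117, 106 and 103 CPM in WT and at 159, 124 and 120 CPM in Yme1l-/- (0.31 ± 0.11, adjusted p 0.0345), with the largest standard error among the members, and was not called without WT replicate 2 (0.28), without WT replicate 3 (0.27) or without the filter on low counts (0.30, adjusted p 0.162). Without Yme1l-/- replicate 1, the highest library of this gene, the value was 0.17. Mrpl58, a peptidyl-tRNA hydrolase that frees stalled mitoribosomes, had a log2 fold change of 0.52 ± 0.07 (adjusted p 2.69e-05). Mrps36, the dehydrogenase subunit, was at 18.8, 19.5 and 19.1 CPM in WT and 24.8, 23.0 and 24.8 CPM in Yme1l-/- (0.34 ± 0.06, adjusted p 0.000473), within the range of the ribosomal members.

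The Mrps18 paralogs, descendants of a single bacterial protein placed at different sites of the particle, had small changes. Mrps18c had a log2 fold change of 0.24 ± 0.08 (adjusted p 0.0214) with overlapping libraries, Mrps18b of 0.19 ± 0.04 (adjusted p 0.00305) and Mrps18a, in the large subunit, of 0.09 ± 0.05 (adjusted p 0.101). The first pair was called higher and Mrps18a was not called. With upper-quartile scaling Mrps18a was called higher (0.15), and the call of Mrps18b was lost once the chromosome shifts described below were removed (0.018, adjusted p 0.746). The call of Mrps18c was lost without WT replicate 2 (0.24), WT replicate 3 (0.19) or Yme1l-/- replicate 1 (0.16).

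The 14 members not called had log2 fold changes between -0.14 and 0.15, 9 of them above 0 and 5 below. Mrpl45, which tethers the mitoribosome to the inner membrane, is 1 of them, at 59.7, 59.0 and 60.0 CPM in WT and 59.9, 60.0 and 62.2 CPM in Yme1l-/- (0.03 ± 0.04), and was named after its values were seen. The lowest of the small subunit proteins particular to mitochondria were Mrps31, at -0.10 ± 0.06, and Mrps22, at 0.01 ± 0.06, and the second lowest of such large subunit proteins was Mrpl52, at -0.10 ± 0.06. None of these 4 passed the test. Other settings gave Mrps31 calls in opposite directions, lower without Yme1l-/- replicate 1 (-0.16, adjusted p 0.0148) and higher with the median of its chromosome removed (0.21, adjusted p 0.00872). That removal also gave calls for Mrps22, higher at 0.37, and for Mrpl45, lower at -0.33 (adjusted p 5.68e-05).

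Mrps23, a small subunit protein particular to mitochondria, was the only member that did not pass the filter on low counts (chromosome 11, 88204388 to 88211507). Its fragments numbered 6, 2 and 4 in WT cultures, against 5, 17 and 5 in Yme1l-/- cultures. In both genotypes these are far below the 371 fragments that were the lowest count of a tested member.

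By the authors' FPKM, a level per transcript length, tested members ranged from 11.7 to 213.7 in WT with a median of 45.0. The 5 most abundant were Mrpl33 (213.7), in a locus merged with Babam2, Mrpl52 (178.4), Mrpl42 (170.2), Mrpl54 (155.2) and Mrpl17 (140.9). Their log2 fold changes in the counts were 0.23 for Mrpl33, -0.10 for Mrpl52, 0.23 for Mrpl42, 0.53 for Mrpl54 and 0.18 for Mrpl17. Mrpl52 was not called, and Mrpl17, called with an adjusted p of 0.0437, had overlapping libraries and was not called without WT replicate 2 (0.16), WT replicate 3 (0.13) or Yme1l-/- replicate 1 (0.11).

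Besides Mrps6 and Mrpl33, 3 members sat in loci merged with other genes. These were Mrps24 with Urgcp, at a log2 fold change of 0.28, Mrps34 with Nme3, at 0.44, and Mrpl53 with Ccdc142 and Gm42688, at 0.34. Of the 5 merged loci, 4 were called higher and 1 lower. Without them, 51 members were called higher and 7 lower.

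Overlaps and copies of the loci bear on the counts. In the GENCODE M21 annotation, 28 members have an exon that overlaps an exon of a gene on the other strand, 20 of them with a protein-coding gene. The kit marks strand, but whether the counting used it is not given in the sources used here. The overlaps include Mrpl13 with Mtbp (330 bases), Mrps25 with Nr2c2 (4590 bases) and Mrpl46 with Mrps11 (173 bases). Among the 49 tested members without such an overlap, 31 were called higher and 6 lower, with a median log2 fold change of 0.23. Over all loci tested, 33.6% were higher and 34.1% lower. For 18 members, a pseudogene of the same sense with at least 95% identity over at least 200 bases was found, with 23 such copies in all. The 21 copies that are in the count table held at most 6.67% of the counts of their member, reached for Mrps33. The copies Gm6997 of Mrpl22 and AC154457.3 of Mrps10 have no row there, so no such value can be given for these members. How fragments matching both a member and its copy were assigned is not given. The counts of the copies therefore set no limit on misassigned fragments.

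Position on the chromosome moved with the result. In these clones whole chromosomes were shifted, with medians of all tested loci from -0.44 on chromosome 12 to 0.59 on chromosome 15, and members lay on 17 chromosomes. On the 8 chromosomes with a median above 0, 38 of 42 members were called higher and 1 lower, where 52.0% of all tested loci were higher and 19.1% lower. On the 9 chromosomes with a median below 0, 17 of 35 members were called higher and 7 lower, where 22.2% of all tested loci were higher and 42.4% lower. Members thus had a larger share called higher than all tested loci of the same chromosomes in both sets, and their median log2 fold changes were 0.37 and 0.13.

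Single chromosomes showed both situations. On chromosome 6, with a median of 0.34, 7 of 7 members were called higher, with log2 fold changes from 0.20 for Mrpl19 to 0.65 for Mrpl35, where 58.8% of all tested loci were higher. On chromosome 11, with a median of 0.36, 9 of 10 members were, beside 62.9% of all tested loci. On chromosome 7 the median was -0.0098 and 28% of all tested loci were higher, and yet 6 of 6 members were, from Mrpl17 at 0.18 to Mrpl46 at 0.60. On chromosome 9, with a median of -0.36, Mrpl4 was higher by 0.43 ± 0.06 (adjusted p 5.18e-05) while Mrpl3 was lower.

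When the median of each chromosome was removed within the fit, 45 members were called higher and 6 lower, beside 31.1% and 31.7% of all loci. The median log2 fold change of the members fell to 0.18, and 61 of 77 were above their chromosome. Taken over their chromosomes, the medians were 0.15 for Mrpl names and 0.24 for Mrps names. By structure they were 0.20 and 0.10 for large subunit proteins with a bacterial counterpart and particular to mitochondria, and 0.25 and 0.21 for those of the small subunit. Of the 55 members called higher before, 39 were called higher again, and Mrps35 and Mrpl19, both on chromosome 6, were called lower (-0.14 and -0.14, adjusted p 0.04 and 0.0253). Of the 8 called lower before, 3 were called lower again, Mrps6, Mrpl36 and Mrpl50, so that the other 3 lower calls, those of Mrps35, Mrpl19 and Mrpl45, were gained. Mrpl3, Mrpl34, Mrps9, Mrps14 and Mrps21 lost their lower calls, at 0.032, 0.059, -0.032, -0.13 and -0.10. Mrpl12, Mrpl42, Mrps24 and Mrpl53 lost their higher calls, at -0.049, -0.066, -0.081 and 0.0009. So did Mrpl10, Mrpl11, Mrpl21, Mrpl28, Mrpl32, Mrpl38, Mrpl51, Mrps7, Mrps18b and Mrps33. Higher calls were gained by Mrpl15, Mrpl20, Mrpl30, Mrpl57, Mrps22 and Mrps31. Mrpl55 remained the highest at 0.92, followed by Mrpl4 at 0.79 and Mrps30 at 0.66, while Mrpl13 dropped to 0.31. Others kept their calls at smaller values, among the higher ones Mrpl22 at 0.48, Mrpl35 at 0.31, Mrps34 at 0.27, Mrpl54 at 0.23, Mrpl58 at 0.16 (adjusted p 0.0457) and Mrps25 at 0.13, and among the lower ones Mrpl50 at -0.18.

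**Figure D2:**
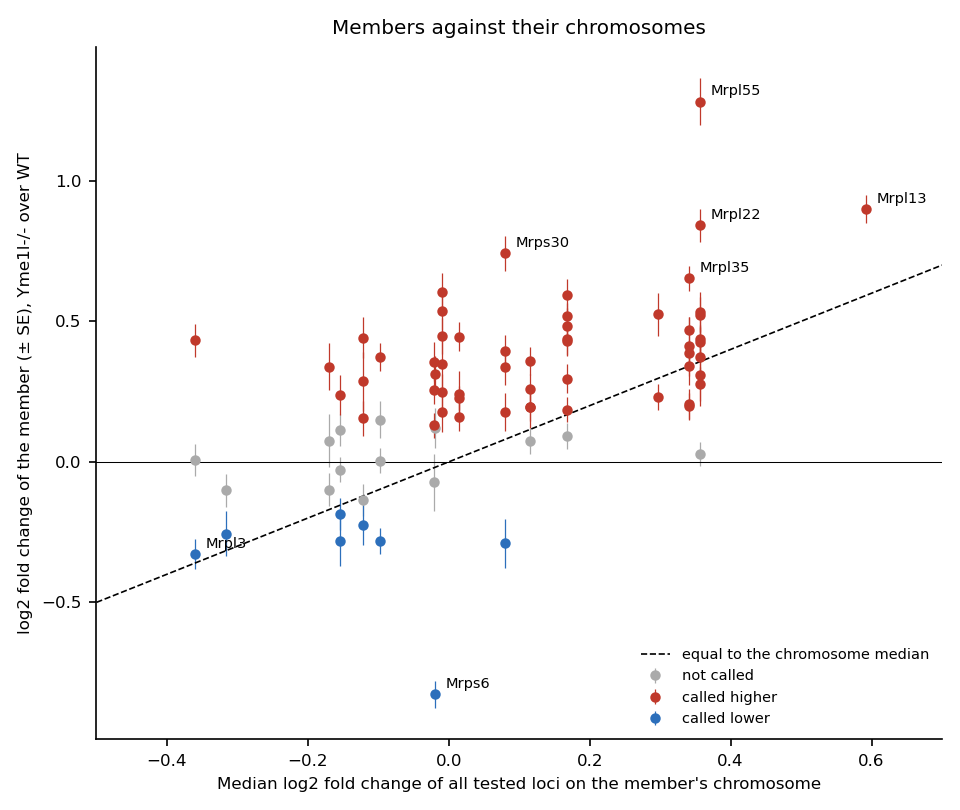
Each point is a tested member, with its log2 fold change (± SE) on the vertical axis and the median log2 fold change of all tested loci of its chromosome on the horizontal axis, and the dashed line marks equality. Most members lie above the line, as Mrpl55 at 1.28 against 0.36 does, and Mrpl3 lies near it at -0.33 against -0.36.

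Promoter sequences were available for 69 of the 78 members, as 75 windows of 300 bases in the RefSeq table for GRCm38.p6. Since nuclear respiratory factor 1 (NRF1), ETS factors such as GABPA, and YY1 are known regulators of nuclear genes for mitochondria, short core motifs of each were searched on both strands. The NRF1 core CGCNTGCG was in 20 windows (26.7%), beside 8.21% of all 32851 windows in the table and 16.5% of the windows of tested loci. The ETS core CCGGAAG was in 26 windows (34.7%), beside 8.86% and 17.2%, and the YY1 core AANATGGC in 21 windows (28.0%), beside 6.05% and 8.28%. At least 1 of the 3 was found in 48 of 75 windows. The letters were present on both sides of the result, as the NRF1 core was in 14 of 53 windows of members called higher and in 2 of 8 of those called lower, the ETS core in 18 and 3, and the YY1 core in 16 and 1.

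Among the 8 highest and 8 lowest members, those with a whole motif in the last 100 bases before the start are printed 5′ to 3′, with Mrpl12 for its second role and Mrpl55, without a match, as the largest change. Capitals mark the motif letters found on either strand.
Mrpl55, chr11:59202386-59202485, plus strand: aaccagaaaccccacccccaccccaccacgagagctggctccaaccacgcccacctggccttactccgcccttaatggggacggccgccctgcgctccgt
Mrpl22, chr11:58171564-58171663, plus strand: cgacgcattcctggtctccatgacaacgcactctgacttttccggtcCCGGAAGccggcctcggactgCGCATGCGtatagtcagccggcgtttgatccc
Mrpl12, chr11:120484537-120484636, plus strand: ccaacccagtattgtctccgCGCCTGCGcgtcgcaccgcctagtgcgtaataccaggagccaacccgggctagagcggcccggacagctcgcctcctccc
Mrps21, chr3:95871515-95871614, minus strand: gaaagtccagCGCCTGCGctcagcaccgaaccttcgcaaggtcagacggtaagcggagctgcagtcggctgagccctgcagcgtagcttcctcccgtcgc
Mrpl3, chr9:105053168-105053267, plus strand: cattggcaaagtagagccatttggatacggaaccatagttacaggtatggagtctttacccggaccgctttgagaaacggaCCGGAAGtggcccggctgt
Mrpl34, chr8:71464826-71464925, plus strand: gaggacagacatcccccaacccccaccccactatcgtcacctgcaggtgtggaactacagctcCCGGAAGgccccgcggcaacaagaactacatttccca
Mrpl36, chr13:73330909-73331008, plus strand: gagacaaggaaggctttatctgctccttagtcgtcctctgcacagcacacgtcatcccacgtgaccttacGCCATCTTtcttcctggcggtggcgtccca

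Mrpl22, called higher, holds an ETS and an NRF1 core. Mrpl3 and Mrpl34, called lower, hold the same ETS letters, and Mrps21, also lower, the same NRF1 letters as Mrpl12. With chromosome medians removed, Mrpl22 kept its call, whereas Mrpl3, Mrpl34, Mrps21 and Mrpl12 were not called. Any part of the motifs in these changes was not tested. Member windows held a median of 21 CpG sites, beside 7 in all windows and 20 in the windows of tested loci.

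Of 8 tested regulators of nuclear genes for mitochondria, 1 was called higher and 3 lower, or 12.5% and 37.5% beside 33.6% and 34.1% of all tested loci, with a median log2 fold change of -0.07. Yy1 was at 208, 199 and 183 CPM in WT and 106, 107 and 105 CPM in Yme1l-/- (-0.89 ± 0.05, adjusted p 5.35e-08) and lies on chromosome 12, whose median was -0.44. Myc was at -0.17 and Gabpa, the ETS factor, at -0.14. Ppargc1b, a coactivator, was higher by 1.05 ± 0.19 (adjusted p 0.000394) from a low level, 0.85, 0.92 and 0.83 CPM in WT and 1.66, 1.86 and 1.82 CPM in Yme1l-/-. Nrf1, named after its values were seen, did not pass the test at -0.08 ± 0.04. Relative to their chromosomes all of these but Ppargc1b were called lower, Myc at -0.76, Yy1 at -0.45, Nrf1 at -0.43 (adjusted p 7.07e-06) and Gabpa at -0.12, and with Pprc1 the number of regulators called lower was 5 and their median -0.14.

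Many members start close to a gene on the other strand that runs the opposite way. Within 1000 bases, 31 members had such a protein-coding neighbour from outside the family in GENCODE M21, and in 29 pairs both genes were tested. Mrpl46 and Mrps11, the only pair made of 2 members, were called higher at 0.60 and 0.45 and are not in these counts. Among the neighbours, 17 were called higher, 5 lower and 7 neither, where 33.6% of all tested loci were higher and 34.1% lower. Their median log2 fold change was 0.27, beside 0.25 for the members of these pairs. Of the 21 pairs whose member was called higher, 13 had a neighbour called higher, 2 a neighbour called lower and 6 a neighbour not called. Pairs also share their chromosome, and some share exon bases on opposite strands, while the use of strand in the counting is not known. The part of the chromosome shift and of shared bases was not tested.

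**Figure D3:**
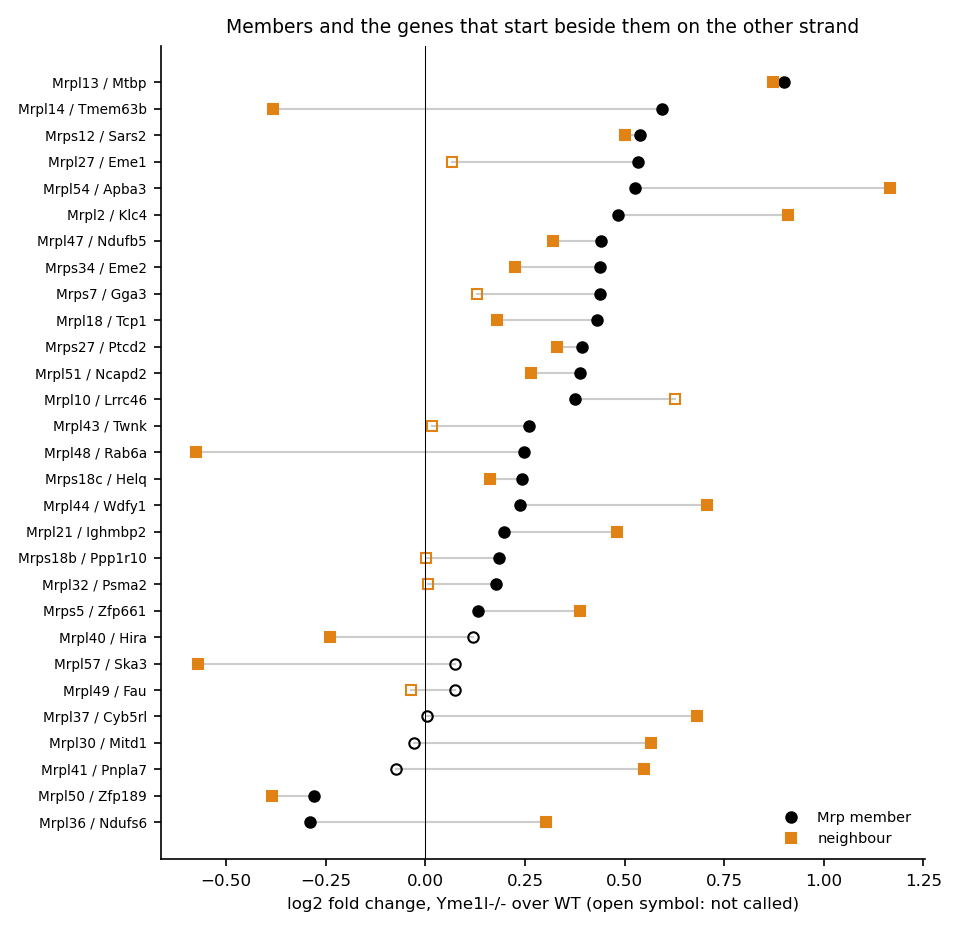
Each row is a pair of a member (black circle) and the gene starting within 1000 bases on the other strand (orange square), placed by log2 fold change, with open symbols for genes not called. Mrps12 and Sars2 lie together at 0.54 and 0.50, whereas Mrpl14 and Tmem63b lie on opposite sides at 0.59 and -0.38.

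Several pairs moved alike. Mrpl13 and Mtbp, which overlap by 330 bases, were higher by 0.90 and 0.87 on the log2 scale, and Mrps12 and Sars2, the mitochondrial seryl-tRNA synthetase, by 0.54 and 0.50. Mrpl47 and Ndufb5, a complex I subunit, were higher by 0.44 and 0.32 and overlap by 616 bases. Others did not, since Mrpl14 was higher by 0.59 with Tmem63b lower by -0.38, and Mrpl48 higher by 0.25 with Rab6a lower by -0.58. Mrpl36 was lower by -0.29 with Ndufs6, another complex I subunit, higher by 0.30. In that order, the overlaps of these pairs were 106, 708 and 30 bases. These pairs were named after their values were seen.

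Other genes of mitochondrial translation had calls in both directions, to be read against 33.6% higher and 34.1% lower among all loci tested. Of 5 mitoribosome subunits with symbols outside the naming rule, 2 were called higher and 1 lower, with a median log2 fold change of 0.06. Ptcd3, a small subunit protein, was higher by 0.34 ± 0.04 (adjusted p 2.55e-05) and Aurkaip1, another, by 0.18 ± 0.06 (adjusted p 0.0272). The value of Ptcd3 equals the median of its chromosome 6, and it was not called once that was removed. Aurkaip1 was not called without WT replicate 2 (0.16), WT replicate 3 (0.16) or Yme1l-/- replicate 1 (0.11). Gadd45gip1, a large subunit protein near the tunnel exit, was at 99.8, 88.8 and 85.6 CPM in WT and 68.0, 58.4 and 57.7 CPM in Yme1l-/- (-0.58 ± 0.08, adjusted p 4.95e-05). On chromosome 8, with a median of -0.32, it lay -0.26 below its chromosome (adjusted p 0.0114).

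Among 25 tested genes of mitoribosome assembly and rRNA modification, 10 were called higher and 6 lower, or 40% and 24%, with a median of 0.10. Mrm1, an rRNA methyltransferase, was higher by 0.85 ± 0.07 (adjusted p 7.91e-07), Ybey, an endoribonuclease, by 0.72 and Malsu1, an assembly factor of the large subunit, by 0.61. With chromosome medians removed they were called higher at 0.49, 0.42 and 0.27. Mettl15, an rRNA methyltransferase of the small subunit, was at 7.31, 5.89 and 6.55 CPM in WT and 4.199, 4.004 and 4.944 CPM in Yme1l-/- (-0.59 ± 0.13, adjusted p 0.0017).

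Among translation factors and related genes, 10 of 15 were called higher and 3 lower, with a median of 0.32. The related genes include Oxa1l, called higher at 0.19, and Lrpprc and Slirp, called lower at -0.20 and -0.27. Taco1, an activator of cytochrome oxidase subunit translation, was higher by 0.78 ± 0.09 (adjusted p 8.8e-06). Gfm2, which recycles mitoribosomes, was at 25.2, 22.3 and 23.2 CPM in WT and 37.5, 37.4 and 37.3 CPM in Yme1l-/-, followed by the elongation factor Tsfm at 0.62 and the GTPase Guf1 at 0.56 on the log2 scale. Removed chromosome medians left Taco1 at 0.42 and Tsfm at 0.32, both called higher. Of 17 mitochondrial tRNA synthetases, 6 were higher and 5 lower, or 35.3% and 29.4%, with a median of -0.12, from Mars2 at -0.53 to Sars2 and Aars2 at 0.50 and Ears2 at 0.40. These shares are close to those of all loci, and the number called lower rested on single libraries, at 1 without Yme1l-/- replicate 3, 3 without WT replicate 1 and 8 without Yme1l-/- replicate 1, and was 1 with upper-quartile scaling. Relative to their chromosomes the median of the synthetases turned to 0.11, with 12 of 17 above 0.

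Complex I subunits and cytosolic ribosomal proteins served as the most similar families, again beside 33.6% higher and 34.1% lower among all loci. Complex I, which holds several products of the mitoribosome, had 23 of 36 tested subunits higher and 3 lower, or 63.9% and 8.33%, and a median of 0.26, which was 0.13 relative to the chromosomes, with 17 called higher. Cytosolic ribosomal proteins build the other ribosome of the cell, and their set was taken by symbol, Rpl or Rps with a number and optional letters. That rule also admits kinases named with Rps symbols and leaves out Rplp and Rpsa symbols. The part of these in the values was not tested. The set had 24 of 91 higher and 22 lower, or 26.4% and 24.2%, and a median of -0.03, or 0.0055 relative to the chromosomes. Its summed level was 47786, 43985 and 42627 CPM in WT and 50564, 45167 and 44370 CPM in Yme1l-/-. That is a ratio of 1.04 with overlapping libraries, beside 1.19 for the mitoribosomal proteins and 1.19 for complex I. In all 3 families the first culture was the highest of its genotype. The difference between families was not tested.

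**Figure D4:**
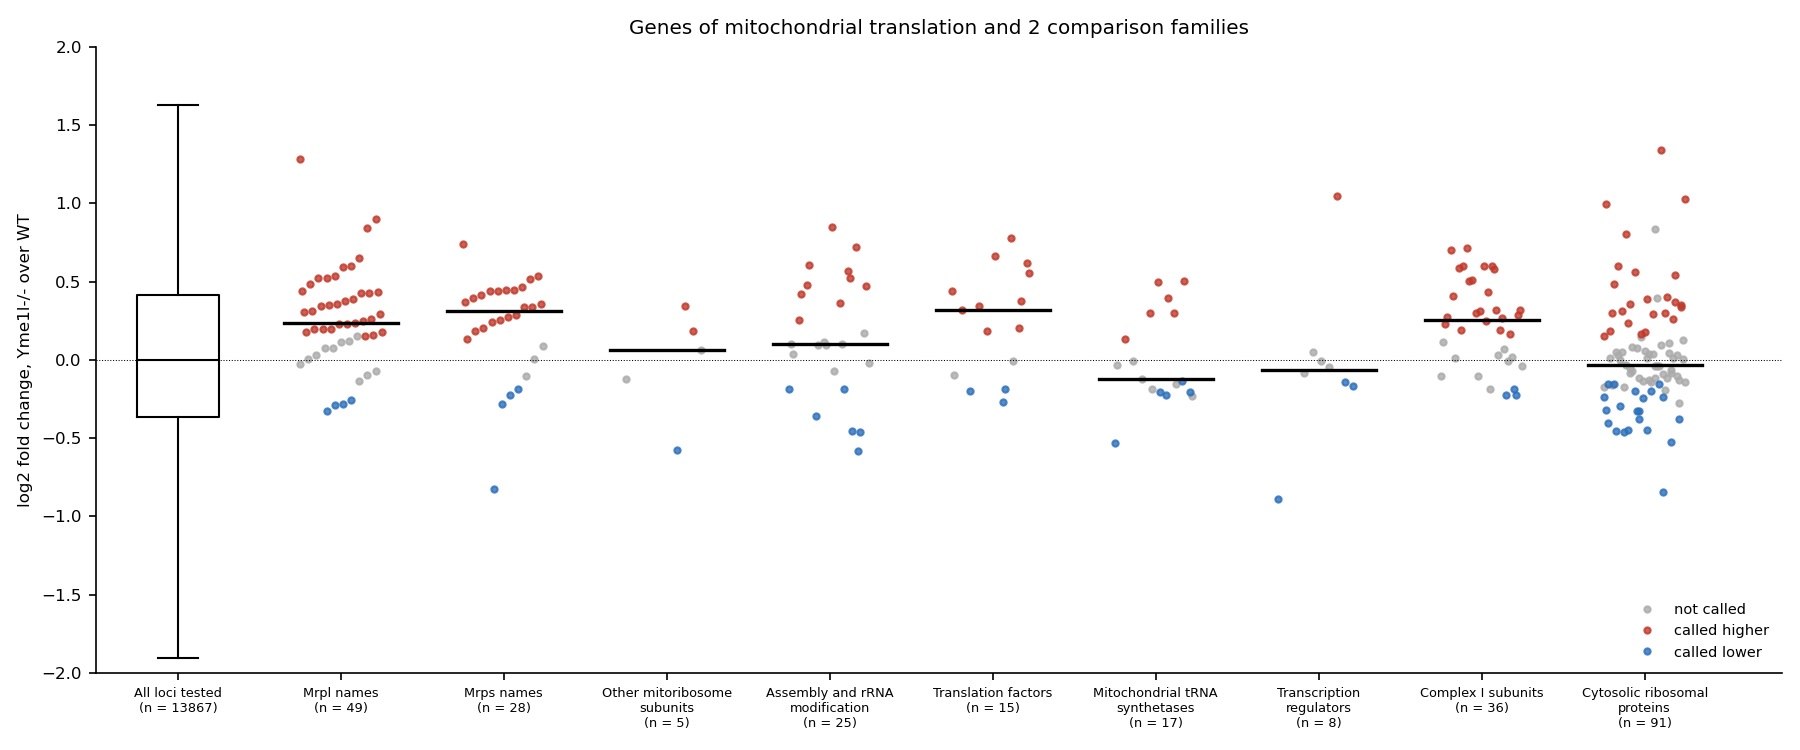
Each point is a tested gene placed by its log2 fold change (red, called higher; blue, called lower; grey, not called), black bars are medians, and the box shows the quartiles of all loci with whiskers at percentiles 5 and 95. Medians are above 0 for Mrpl names (0.24), Mrps names (0.31), translation factors with related genes (0.32) and complex I (0.26). The median is near 0 for the symbol set of cytosolic ribosomal proteins (-0.03), of which 1 gene lies beyond the axis limit of 2.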

How the data were processed

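The authors aligned reads to mouse GRCm38 (mm10, Ensembl annotation) with HISAT2 2.0.4, assembled transcripts with StringTie 1.3.3 and compared genotypes with Cuffdiff 2.2.1. They deposited 1 table of raw fragment counts per locus and library and 1 with a mean FPKM value per genotype. The latter also holds their fold changes and p-values, which were not used. Here 13867 of 51499 loci passed filterByExpr (minimum count of 10) and were fitted with edgeR 4.0.16 in R 4.3.3 (TMM, robust quasi-likelihood test, two-sided, no block), and p-values were adjusted by the Benjamini-Hochberg method over these loci. Errors of fold changes are standard errors derived from the F statistic. Positions come from the authors' table, with starts counted from 1. Members and gene lists were chosen with earlier results of these data known, so no list was tested as a set. Named with values were the 8 highest and 8 lowest called members, the 2 highest and lowest of each structural group, untested and merged members, Mrpl12, Mrps36, the Mrps18 paralogs, the 5 most abundant by FPKM, and up to 4 called genes of each further list with the largest changes. Mrpl4, Mrpl19, Mrpl45, Mrpl58, Mrps35 and the neighbour pairs were named after their values were seen. Similar copies were sought with blastn 2.17.0+ among GENCODE M21 transcripts. Alternatives covered scaling, DESeq2 1.42.0, count filters, the replicate number as a block, each library left out, removed chromosome medians and thinned libraries.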

Additional observations from a re-analysis of the deposited data

How the results depend on the processing

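The number of members called higher, 55, stayed between 45 and 60 under all alternatives, and the median log2 fold change stayed above 0. With chromosome medians removed it moved to 0.18, and with upper-quartile scaling, which shifted the median of all loci to 0.055, it was 0.32, with 60 members higher and 5 instead of 8 lower. Leaving out 1 library gave 46 to 55 members higher, 5 to 10 lower (5 without Yme1l-/- replicate 2, 10 without Yme1l-/- replicate 1), a median of 0.22 to 0.31, a median over the chromosome of 0.14 to 0.21, and -2.29 to -2.25 for Yme1l1. Deviations from the genotype means correlated at 0.20, -0.16 and 0.048 across loci for replicate numbers 1 to 3, and from -0.23 to 0.24 for unlike numbers. With 3 cultures per genotype these values cannot tell whether the numbers pair the cultures. With the replicate block, 57 members were higher and 9 lower. Of 462 values of the 33 members named by rule under the alternatives, 422 kept direction and call, 26 lost the call, 3 gained it and 11 turned. With chromosome medians removed, Mrpl3 (0.032), Mrpl34 (0.059), Mrpl52 (0.070), Mrps31 (0.21, called higher), Mrpl12 (-0.049), Mrpl42 (-0.066), Mrps18a (-0.076) and Mrps24 (-0.081) changed sign. Mrps22, not called at 0.0077, went from -0.020 to 0.066 as single libraries were left out and was called higher, at 0.37, with chromosome medians removed. Counts of calls in single groups and lists moved by over 1.5 times in 29 cases, most of them counts of 0 to 8 genes. Removed chromosome medians took cytosolic ribosomal proteins from 24 to 13 higher and from 22 to 11 lower, assembly genes from 6 to 1 lower, tRNA synthetases from 5 to 2 lower (1 to 8 as single libraries were left out) and regulators from 3 to 5 lower. They also took lower calls of Mrps names from 4 to 2, of small subunit proteins with a bacterial counterpart from 4 to 1, of complex I from 3 to 0 and of translation factors from 3 to 1. Lower calls fell from 3 to 1 for translation factors without WT replicate 2 or Yme1l-/- replicate 3 and for regulators without WT replicate 2, and subunits outside the naming rule had 1 higher call without WT replicate 2, WT replicate 3 or Yme1l-/- replicate 1 and 2 lower calls without the last. Beyond the removed shift itself, the cause was not tested. Thinning to the smallest total ended the higher calls of Mrpl32, Mrpl9 and Mrpl17, and Mrps23 had too few fragments to be tested.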
